A study of Mus musculus with 72 samples.

Results

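Imprinted genes are genes of which mainly a single parental copy is transcribed, and 8 of them, Asb4, Dlk1, Peg3, Meg3, Snrpn, Ndn, Nnat and Impact, were followed across Pet1 neurons of the mouse dorsal raphe (DR). They were taken by name, with earlier results of these data known. All 8 were among the 17231 genes of the 10X table and among the 24256 genes of the table of manually sorted cells. In the 10X cells they fell apart into 3 genes that differed strongly between neuron subtypes (Asb4, Dlk1 and Nnat) and 5 that stood within 2-fold of the other cells in every subtype (Peg3, Meg3, Snrpn, Ndn and Impact). Parental alleles were not measured, so nothing here shows which copy the RNA came from.

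As background, imprinted genes lie in clusters along the chromosomes, and methylation laid down in the germ line sets which parental copy stays silent. Many of them are abundant in brain, and the hypothalamus and the monoaminergic nuclei are known sites of their expression. The transcription factor PET1, encoded by Fev, marks the serotonin (5-HT) neurons of the raphe and their close relatives.

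The 10X table holds single cells sorted for a Pet1::Flpe-driven reporter from mice of 2 genotypes, Pet1::Flpe+/-; hM3Dq+/+ at a mean age of P65.5 and En1::cre+/-; Pet1::Flpe+/-; RC::FrePe+/- at a mean age of P59, where En1::cre limits the label to Pet1 neurons with a history of En1. The animals of each genotype were pooled, and both genotypes share the Pet1::Flpe allele. The 70 manual cells carry Pet1::Flpe+/- and RC::FrePe+/- together with 1 of 4 cre drivers, so that only cells with a history of both recombinases were picked. The driver was Sert::cre (the serotonin transporter gene) in dorsolateral (Sert-Pet1 dlDR, 10 cells, P63 and P90), dorsomedial (Sert-Pet1 dmDR, 9 cells, P63 and P90), ventromedial (Sert-Pet1 vmDR, 8 cells, P63 and P90) and caudal DR (Sert-Pet1 cDR, 6 cells, all P63). It was P2ry1::cre in caudal DR (P2ry1-Pet1 cDR, 10 cells, P62 to P74), Npy2r::cre in caudal and in rostral DR (Npy2r-Pet1 cDR, 10 cells, and Npy2r-Pet1 rDR, 9 cells, both P77 and P87), and Crh::cre in rostral DR (Crh-Pet1 rDR, 8 cells, P83 and P119). The labels name no animal. Place and animals therefore cannot be told apart between groups of the same driver and ages (Sert-Pet1 dlDR, dmDR and vmDR, or both Npy2r-Pet1 groups), nor driver, age and animals between the others, and no test was made between groups or clusters.

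Each 10X cell has 12320 to 134079 unique molecular identifiers (UMIs). The barcodes of the table end in 1 for 869 cells (barcode set 1, median 57454 UMIs) and in 2 for 1481 cells (barcode set 2, median 61151 UMIs), no barcode is shared between the sets, and nothing states which genotype an ending stands for. Xist, the transcript of the inactive X chromosome, had 253.8 CPM (counts per 1000000 UMIs) in set 1 and 0 CPM in set 2, so that sex, genotype and barcode set cannot be told apart. The manual cells hold 756872 to 7664103 reads each. Serotonergic markers (7 genes) summed to between 2652 CPM in cluster 13 and 11100 CPM in cluster 3, while the summed markers of oligodendrocytes, astrocytes, microglia, vessels, blood and dopamine neurons reached at most 66.0 CPM in any cluster. In the manual cells the serotonergic sum had group medians between 14380 and 29000 CPM, and the highest group median of another list was 43.4 CPM, for oligodendrocytes in Sert-Pet1 cDR.

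The 10X cells formed 14 clusters, numbered by their marker genes. Clusters 2 to 6 had the genes of GABA synthesis, with 46.8 to 198 CPM of Gad1 and 117 to 311 CPM of Gad2, and clusters 7 to 12 had the vesicular glutamate transporter gene Slc17a8 at 225 to 501 CPM. Cluster 13 also had both Gad1 (70.5 CPM) and Slc17a8 (428 CPM). Tph2, for the enzyme that starts serotonin synthesis, was lowest in clusters 13 (644 CPM) and 14 (1445 CPM) and ran from 1702 to 3759 CPM in the others. The level of a gene in a cluster is the CPM of its summed UMIs, and a log2 ratio sets this level against all other cells. Intervals are 95% exact intervals that cover counting error only.

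On the mm10 genome, Asb4 (ENSMUSG00000042607.15) lies at chr6:5383386-5433022 on the plus strand. It belongs to the imprinted stretch of proximal chromosome 6 that also holds Ppp1r9a, 218 kb away, Peg10, 623 kb away, and Calcr. Dlk1 (ENSMUSG00000040856.17, chr12:109452823-109463336) and Meg3 (ENSMUSG00000021268.17, chr12:109541001-109571726) are neighbours 77.7 kb apart on the plus strand of chromosome 12. Of the pair, Dlk1 is known to be made from the paternal copy and Meg3, a long non-coding RNA, from the maternal copy. Peg3 (ENSMUSG00000002265.16, chr7:6703892-6730431, minus strand) lies alone among the members near one end of chromosome 7. Snrpn (ENSMUSG00000102252.5, chr7:59982495-60140219, minus strand) and Ndn (ENSMUSG00000033585.5, chr7:62346569-62350262, plus strand) lie 2206 kb apart in the interval that corresponds to the human Prader-Willi region. Nnat (ENSMUSG00000067786.16, chr2:157560078-157562522, plus strand) lies inside Blcap. Snrpn overlaps Snurf, with which it shares transcripts, so that reads of the pair cannot be fully told apart.

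The stretches before the start sites of Asb4 and Dlk1 are shown because these are the members whose RNA differed most between subtypes. They are the 250 bases upstream of the first start in RefSeq (GRCm38.p6), chr6:5383136-5383385 for Asb4 and chr12:109452573-109452822 for Dlk1, both on the plus strand and free of annotated exons, with each CG dinucleotide in capitals.
Asb4: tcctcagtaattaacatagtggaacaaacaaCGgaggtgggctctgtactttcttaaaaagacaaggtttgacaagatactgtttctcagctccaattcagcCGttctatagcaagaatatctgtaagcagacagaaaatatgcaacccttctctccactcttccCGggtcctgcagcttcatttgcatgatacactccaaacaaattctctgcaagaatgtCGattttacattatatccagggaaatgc
Dlk1: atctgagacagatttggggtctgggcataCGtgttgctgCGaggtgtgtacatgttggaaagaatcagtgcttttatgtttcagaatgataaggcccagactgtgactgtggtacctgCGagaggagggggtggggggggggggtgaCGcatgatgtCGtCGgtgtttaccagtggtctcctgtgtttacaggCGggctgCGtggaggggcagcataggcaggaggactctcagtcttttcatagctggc
The Asb4 stretch holds 4 CG dinucleotides and the Dlk1 stretch 8, against a median of 6 over the 32841 upstream stretches of the table. Neither holds TATAAA on either strand, which 12.4% of all stretches do. CCAAT, present in 33.9% of all stretches on either strand, is found in that of Asb4 and not in that of Dlk1.

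Another word recurred in some of the remaining members, though not in Peg3 or Meg3. The palindrome CGCATGCG, chosen after the sequences had been read, is present in the stretch before a RefSeq start of 3 of the 7 members that the promoter table holds, namely Snrpn, Ndn and Nnat, and of 472 of all 27018 genes (1.75%). It stands in 3 of the 4 listed Snrpn starts, and among the other imprinted genes it was found for 2 of 38, Commd1 and Snhg14. The windows below give the palindrome in capitals with 8 bases on each side, at chr7:62348246-62348269 for Ndn (plus strand), at chr2:157560045-157560068 for Nnat (plus strand) and at chr7:60048034-60048057, chr7:60140288-60140311 and chr7:60450225-60450248 for the Snrpn starts (minus strand), in that order.
Ndn: tcccaacaCGCATGCGcaatatcg
Nnat: cccaagcgCGCATGCGcacttagg
Snrpn a: aacatgcaCGCATGCGtcgttgaa
Snrpn b: aacatccaCGCATGCGtgatggga
Snrpn c: aacatccaCGCATGCGtgattgga
The match is a description of the letters. The RefSeq starts are not all at the ends of the genes given above. The Ndn stretch and that of the first Snrpn window lie inside these genes, the Ndn stretch overlaps an exon of Ndn, and that of Nnat overlaps an exon of Blcap. The other Snrpn windows lie upstream of the Snrpn gene as given above, the last of them far from it. The genes that carry it behaved differently, since Nnat varied between subtypes by over 10-fold while Snrpn and Ndn did not reach 2-fold against the other cells in any cluster.

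Asb4, Dlk1 and Nnat were each at least 2-fold above all other cells in at least 1 cluster, and the same 3 were each at least 2-fold below in at least 1 cluster. Of the 8393 genes with at least 10 CPM, 9.03% were that far above and 12.0% that far below in at least 1 cluster. The members were chosen with earlier results of these data known, so these shares give a background and not a test of the members. The 3 genes also took part in the clustering, as numbers 9 (Dlk1), 21 (Asb4) and 100 (Nnat) in the order of variability of all genes, while the other 5 members were outside the 2000 variable genes. Leaving all imprinted genes out of the clustering gave the same 3 genes in both directions.

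**Figure D1:**
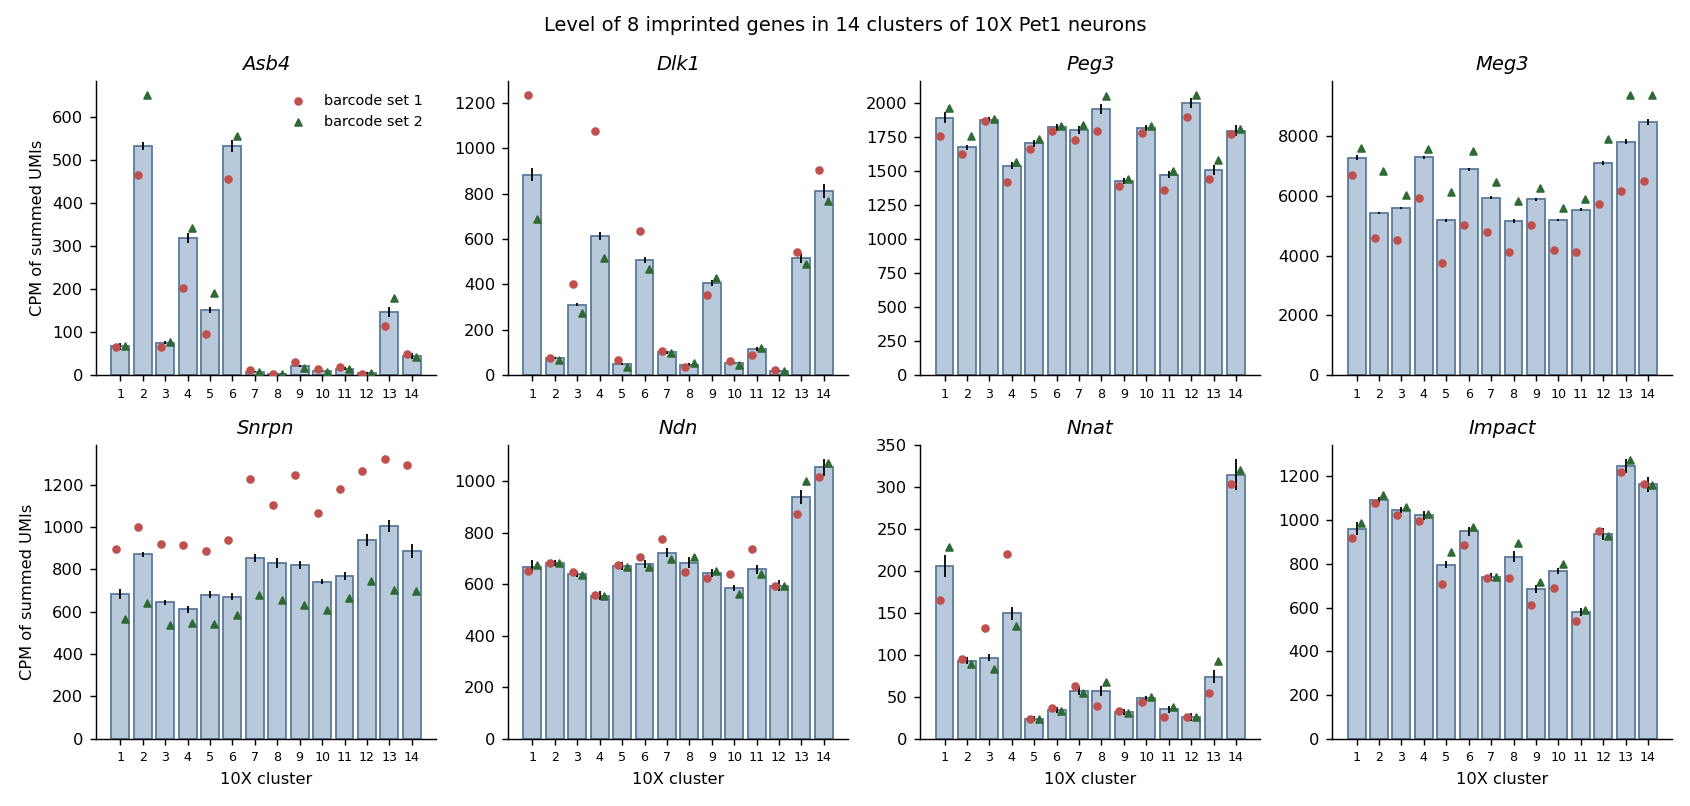
Level (CPM of summed UMIs, linear axis from 0) of each of the 8 genes in 14 10X clusters, with bars for all cells, lines for the 95% exact Poisson interval and symbols for each barcode set. Asb4 ranges from 2.94 to 533 CPM between clusters, Dlk1 from 18.9 to 884 CPM and Nnat from 23.5 to 315 CPM. Peg3, Meg3, Snrpn, Ndn and Impact are present in all 14, with ratios between the extremes from 1.40 (Peg3) to 2.15 (Impact).

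Asb4 encodes an ankyrin repeat and SOCS box protein of the kind that brings substrates to a ubiquitin ligase. Its level was 533 CPM in both clusters 2 (interval 524 to 544) and 6 (interval 519 to 548) with both barcode sets pooled. Set 1 makes up 230 of the 369 cells of cluster 2 and 44 of the 168 of cluster 6, and the levels were 465.5 and 457 CPM within set 1 and 652 and 558 CPM within set 2. Clusters 4 (319 CPM), 5 (152 CPM) and 13 (147 CPM) followed, the last pair with overlapping intervals. Clusters 3 (74.9 CPM), 1 (66.6 CPM) and 14 (44.8 CPM) lay lower, and clusters 7 to 12 ran from 2.94 CPM (1.68 to 4.77, cluster 8) up to 20.5 CPM (cluster 9). High Asb4 was thus found among the clusters with Gad1 and Gad2, although cluster 3 and cluster 5 of the same kind lay below the mean of all other cells. Cluster 2 had a log2 ratio of 2.26 (2.22 to 2.29), and cluster 8 one of -5.96 (-6.77 to -5.26). With components 6 and 7 kept in the clustering these were 1.61 and -4.99, and for cluster 8 the ratio was -4.81 at resolution 0.7 and -6.68 within barcode set 1. In cluster 12, the P2ry1 and Met cluster, it was -5.43, and -6.38 after thinning.

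The share of cells with Asb4 ran over most of its possible range between clusters. Cluster 2 (median depth 56611 UMIs) had at least 1 UMI in 98.9% of its cells and cluster 12 (median depth 45568 UMIs) in 9.17%, or 98.1% and 3.77% after thinning to 20000 UMIs per cell. No cluster is known to lack the gene, so the shares of clusters 7 to 12 cannot be split into expression and free RNA. Of the 363 cells at 500 CPM or more, 196 were in cluster 2 and 84 in cluster 6, and none was in clusters 7 to 12. Cluster 5 was mixed, with 51 of its 179 cells without a UMI and 23 at 500 CPM or more. Its log2 ratio was -1.04 within barcode set 1 and 0.18 within barcode set 2, and that of cluster 4 was 0.12 and 1.15.

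Dlk1 encodes a membrane protein with EGF-like repeats that resembles Notch ligands and is best known for holding back differentiation. Its summed level was highest in cluster 1, the Npas1 cluster, with 884 CPM (857 to 912), followed by cluster 14 (812 CPM), cluster 4 (613 CPM), cluster 13 (515 CPM) and cluster 6 (507 CPM). The intervals of clusters 13 and 6 overlapped. The order at the top differed between the barcode sets, with 1236, 1078 and 906 CPM in clusters 1, 4 and 14 of set 1 and 691, 517 and 769 CPM in those of set 2. The log2 ratio of cluster 4 was 2.17 within set 1 and 1.20 within set 2. Clusters 9 (407 CPM) and 3 (310.4 CPM) came next. Cluster 11 had 115 CPM and cluster 7 had 99.8 CPM, and clusters 2, 10, 5 and 8 ran from 73.8 down to 45.6 CPM. Cluster 12 had the lowest level, 18.9 CPM (15.3 to 23.2). Log2 ratios ran from 1.92 (1.88 to 1.97) for cluster 1 down to -3.80 (-4.11 to -3.51) for cluster 12. The ratios of cluster 6 (1.11) and cluster 13 (1.07) stood close to the 2-fold limit, and thinning moved them to 0.97 and 0.74. With TMM factors, the ratio of cluster 13 was 0.84.

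Dlk1 also differed between the cells of single clusters. In cluster 9, the Nos1 and Maf cluster, the median cell had 15.3 CPM and the 90th percentile 1816 CPM, and of its 148 cells 63 had no UMI while 42 had 500 CPM or more, with 7 between 100 and 500 CPM. Cluster 13 was alike, with 65 of 144 cells without a UMI, 50 at 500 CPM or more and 10 between 100 and 500 CPM. Clusters 1 and 14 were made up mainly of high cells, 66 of 100 and 68 of 100 at 500 CPM or more. Of the 313 cells of cluster 3, 46 had no UMI, 109 were above 0 and under 100 CPM, 81 were between 100 and 500 CPM and 77 had 500 CPM or more. In cluster 9, 31 of 48 cells of set 1 had no UMI and 9 had 500 CPM or more, and in set 2 these were 32 and 33 of 100. Its level was 353 CPM in set 1 and 430.5 CPM in set 2.

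Nnat encodes neuronatin, a small proteolipid of the endoplasmic reticulum membrane known from developing brain. Cluster 14 held most, 315 CPM (297 to 334), before cluster 1 with 206 CPM (193 to 220) and cluster 4 with 149 CPM (141 to 158). Cluster 14 was highest in both barcode sets, but cluster 4 (220.4 CPM) stood above cluster 1 (165.5 CPM) in set 1 and below it in set 2 (134.5 and 228 CPM). Clusters 3 (96.2 CPM) and 2 (93.1 CPM) had overlapping intervals. The low end was formed by cluster 12 (25.8 CPM) and cluster 5 (23.5 CPM, 20.7 to 26.5), which also overlapped. Log2 ratios ran from 2.16 (2.07 to 2.25) for cluster 14 down to -1.80 (-1.98 to -1.63) for cluster 5. The 2-fold call in cluster 14 was lost under other clusterings, with 0.94 at resolution 0.7 and 0.96 with components 6 and 7 kept. The ratio of cluster 4 was 1.05 in all cells, 1.52 within barcode set 1 and 0.95 within barcode set 2. Of all cells, 1333 had a Nnat level above 0 and under 100 CPM and 43 had 500 CPM or more, of which 22 were in cluster 14. With Nnat at 77.1 CPM over all cells, these limits cannot tell graded from split levels.

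**Figure D2:**
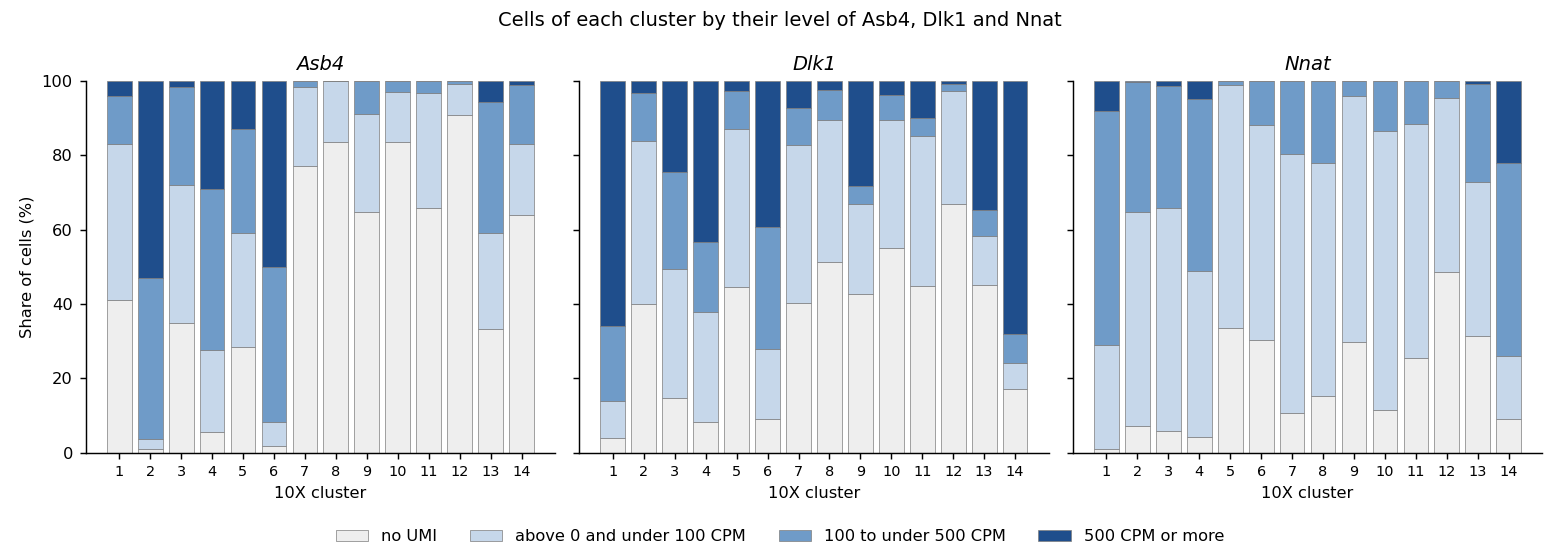
Share of cells (percent) in each 10X cluster with no UMI, above 0 and under 100 CPM, 100 to under 500 CPM, and 500 CPM or more of Asb4, Dlk1 and Nnat. Asb4 reaches 500 CPM in most cells of cluster 2 and in none of clusters 7 to 12, while in clusters 9 and 13 Dlk1 has many cells without a UMI and many at 500 CPM or more.

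The 3 genes did not share a subtype order. In what follows, the percentage in parentheses is the share of the 8393 genes that were at least 2-fold above or below all other cells in the cluster named. Dlk1 and Nnat were above together in clusters 1 (0.655%), 4 (0.870%) and 14 (2.09%), and Asb4 was below in clusters 1 (2.54%) and 14 (3.37%). In cluster 6 Asb4 and Dlk1 were above (1.19%) and Nnat below (1.42%). Cluster 2 had Asb4 above (0.715%) and Dlk1 below (2.51%), with a Nnat ratio of 0.33. Dlk1 alone of the 8 was above in cluster 13 (3.48%), and Asb4 alone was below in cluster 3 (1.76%). Pairs were below in the others, namely Dlk1 and Nnat in cluster 5 (1.56%), Asb4 and Dlk1 in clusters 7 (1.78%), 8 (2.23%) and 10 (1.57%), and Asb4 and Nnat in cluster 9 (1.44%). All 3 were below in clusters 11 (2.10%) and 12 (6.45%). In all, 31 pairs of a gene and a cluster were past 2-fold, 10 above and 21 below, and 28 of them stayed past it with TMM factors, with median-of-ratios factors, after thinning, in each barcode set and without doublets, all with the clusters held fixed.

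The other 5 members were found in nearly every cell. Peg3, a zinc finger protein gene made from the paternal copy, had 1735 CPM over all cells with a lowest level of 1426 CPM (1402 to 1451, cluster 9) and a highest of 2000 CPM (1961 to 2040, cluster 12), a ratio of 1.40 between the extremes. In the order of clusters, 10 of the 13 neighbouring pairs had overlapping intervals. Ndn encodes necdin, a MAGE family protein of postmitotic neurons. It had 667 CPM over all cells, and clusters 14 (1053 CPM) and 13 (938 CPM) stood above a range of 556 to 722 CPM in the other 12 clusters. Its log2 ratio was 0.68 (0.63 to 0.73) in cluster 14.

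Snrpn encodes SmN, a core protein of spliceosomal particles in neurons. It ran from 612 CPM in cluster 4 to 1005 CPM (976 to 1035) in cluster 13, with cluster 12 (940.1 CPM) next, and 763 CPM over all cells. These levels pool barcode sets in which Snrpn differs and which have unequal shares of the clusters (set 1 gives 27 of the 145 in cluster 4 but 72 of the 144 in cluster 13). Within set 1 it ran from 889 CPM in cluster 5 up to 1324 CPM in cluster 13, and within set 2 from 539 CPM in cluster 3 up to 745 CPM in cluster 12. Cluster 4 had a pooled log2 ratio of -0.34, which turned its sign for the matching cluster at resolution 0.7 (0.12) and with imprinted genes left out of the clustering (0.14). These took in 60.0% and 53.1% of its cells, and with the cluster held fixed the ratio was -0.20 within set 1 and -0.16 within set 2. Impact (ENSMUSG00000024423.6, chr18:12955852-12992950, plus strand), whose product holds back activation of the stress kinase GCN2, had its lowest level, 579.5 CPM (563 to 596), in cluster 11 and its highest, 1248 CPM (1215 to 1281), in cluster 13, a ratio of 2.15, the widest among these 5. Its log2 ratios were -0.69 in cluster 11 and 0.47 in cluster 13. Meg3 had 5957 CPM over all cells with extremes of 5153 CPM (5093 to 5214, cluster 8) and 8463 CPM (8368 to 8559, cluster 14). Within set 1 the extremes were 3762 CPM (cluster 5) and 6686 CPM (cluster 1), and within set 2 5592 CPM (cluster 10) and 9370 CPM (cluster 13, with 9365 CPM in cluster 14). With both sets pooled, clusters 13 and 14 held the highest levels of Meg3, Ndn and Impact, and also the lowest depth, with median totals of 28628 and 34715 UMIs. With TMM factors the median of all genes moved by -0.22 in cluster 13 and -0.12 in cluster 14 on the log2 scale, and the members' ratios moved down with it. After thinning every cell to 20000 UMIs the ratio in cluster 14 was 0.50 for Meg3 (0.52 before) and 0.67 for Ndn (0.68 before), and that of Impact in cluster 13 was 0.46 (0.47 before). The part of composition was not tested.

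The members also differed in their spread over cells. After thinning, counting error alone would give a variance equal to the mean. The ratio of variance to mean grows with the mean and is not an order of the genes by spread. Within clusters and barcode sets it was 12.8 for Dlk1 at a mean of 5.42 UMIs, 4.14 for Asb4 at 3.75 and 3.24 for Nnat at 1.69, and 12.1 for Meg3 at 122. It was 3.08 for Peg3, 2.21 for Ndn, 1.84 for Impact and 1.51 for Snrpn. The coefficient of variation of CPM over all cells was 179% for Dlk1, 152% for Asb4 and 147% for Nnat, and 28.8% to 39.3% for the other 5. Differences between clusters and sets held 55.3% of the variance of Asb4 and 48.4% of that of Snrpn, but 28.6% of that of Dlk1 and 10.8% of that of Peg3.

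No member was 2-fold apart between the barcode sets, where 0.512% of the genes at 10 CPM or more were. Snrpn came nearest, with 1047 CPM in set 1 and 608 CPM in set 2, a log2 ratio of 0.78 (0.77 to 0.80), and it was higher in set 1 within 14 of 14 clusters. Meg3 had 4753 CPM in set 1 and 6612 CPM in set 2, a log2 ratio of -0.48 (-0.48 to -0.47), and was lower in set 1 within 14 of 14 clusters. Peg3 was also lower in set 1 within 14 of 14 clusters, by a log2 ratio of -0.07. The mean ratio within clusters was 0.31 for Dlk1, which was higher in set 1 in 11 of 14, and -0.12 for Asb4 and -0.07 for Nnat, whose ratios over all cells were 0.13 and 0.12 and so had the other sign. It was -0.11 for Impact and 0.01 for Ndn. The median absolute log2 ratio was 0.13 over all genes at the limit. Whether sex, genotype or library underlies the difference of Snrpn and Meg3 cannot be told apart.

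**Figure D3:**
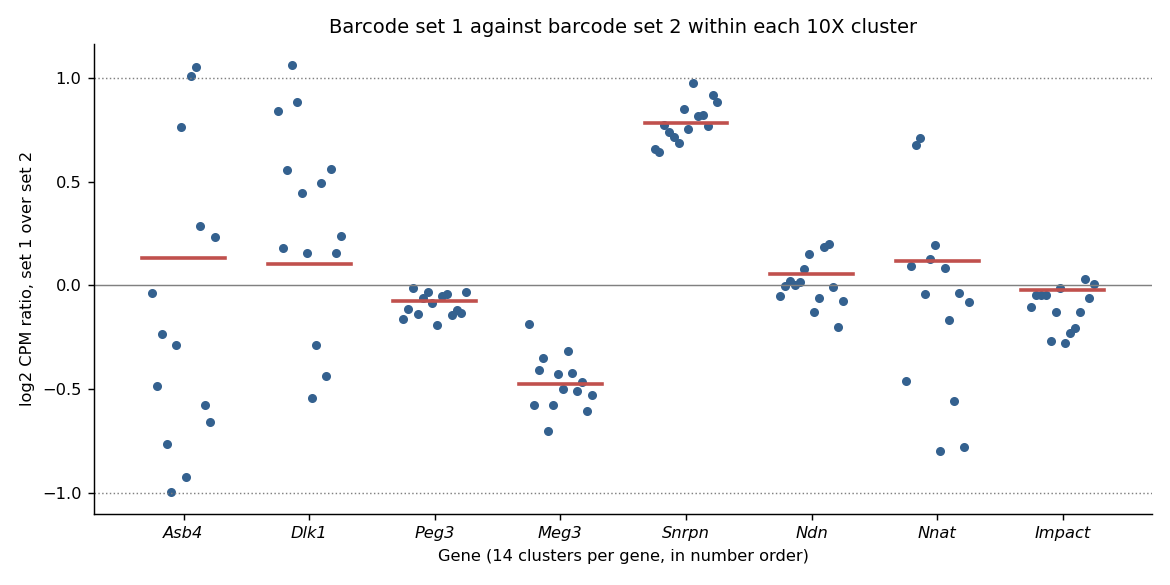
Log2 ratio of CPM in barcode set 1 over barcode set 2 for each gene, with 1 point per 10X cluster, a red line for the ratio over all cells and dotted lines at 2-fold. All 14 points of Snrpn lie above 0 and all 14 of Meg3 and Peg3 below it.

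For comparison, 39 of 51 other genes listed as imprinted were in the 10X table and 27 had at least 10 CPM. Of these, 5 were at least 2-fold above all other cells in some cluster (Peg10, Ppp1r9a, Calcr, Herc3 and Mcts2) and 4 at least 2-fold below (Peg10, Calcr, Ddc and Zdbf2), where 9.03% and 12.0% of all genes at the limit were. The median of the highest log2 ratio per gene was 0.53 for these 27, 0.60 for the 8 members and 0.41 for all genes at the limit. On the chromosome 6 stretch that holds Asb4, Calcr was above with it in cluster 6 and below with it in clusters 3, 8, 10 and 11, and Peg10 was below in clusters 10 and 11. Asb4 and Calcr differed in cluster 2, where Asb4 was above and Calcr below, and in clusters 12 and 14, where Asb4 was below and Calcr above. Asb4 was also below in clusters 1, 7 and 9, and Calcr in cluster 5, where the other gene was not past 2-fold. Peg10, a gene derived from a retrotransposon, had 569.8 CPM in cluster 12 and 100.5 CPM outside it (interval of the log2 ratio 2.44 to 2.56), where Asb4 stood at 4.23 CPM. Calcr, the calcitonin receptor gene, had 196 CPM in cluster 12 against 22.6 CPM (log2 ratio 3.12, 3.01 to 3.22) and was also above in clusters 6, 13 and 14. No Calcr UMI was counted in the 86 cells of cluster 8, which allows up to 0.551 CPM and makes it at least 54.7-fold lower than in all other cells. Ppp1r9a, which encodes the actin-binding neurabin, had 278 CPM in cluster 14, a ratio of 1.11, and 0.92 within barcode set 1.

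Outside that stretch, Herc3, for a ubiquitin ligase, had 316 CPM in cluster 12 (log2 ratio 2.18), where 1.67% of genes were 2-fold above, and Zdbf2 had 55.6 CPM there against 203 CPM (-1.87). Mcts2 had a ratio of 1.07 in cluster 13, and 0.96 within barcode set 1. Ddc, the decarboxylase that makes serotonin and is imprinted only for some transcripts in some tissues, had 484.5 CPM in cluster 13 and 1119 CPM elsewhere (-1.21), where 3.30% of genes were 2-fold below.

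Over the 10X cells the 8 genes were weakly related. Pearson's r of log-normalized levels was positive in 19 of the 28 pairs, with a median of 0.056 and a range of -0.22 to 0.35, while all pairs of the 8393 genes had a median of 0.0023 and a 5th to 95th percentile of -0.080 to 0.085. Cells of pooled mice share libraries and depth, so these values are descriptions. The median level was 715 CPM for the members and 39.7 CPM for all 8393 genes, so their pairs are not matched for level. After centring on cluster and barcode set, the median of the 28 pairs was 0.020.

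The highest r was that of Asb4 and Impact, at 0.35, or 0.18 after centring. Peg3 and Meg3 had 0.26, and 0.32 after centring, the highest of the centred values. Nnat had 0.23 with Impact, 0.22 with Dlk1 and 0.19 with Meg3, and centring left 0.06, 0.02 and 0.11. The neighbours Dlk1 and Meg3, made from opposite parental copies, had 0.20, and 0.30 in set 1, 0.17 in set 2 and 0.08 after centring. Snrpn and Ndn, from the same interval of chromosome 7, had 0.11, or 0.05 after centring. Meg3 and Snrpn had the lowest r, -0.22. It was 0.07 within set 1 and 0.01 within set 2, and both genes differed between the sets in opposite directions.

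**Figure D4:**
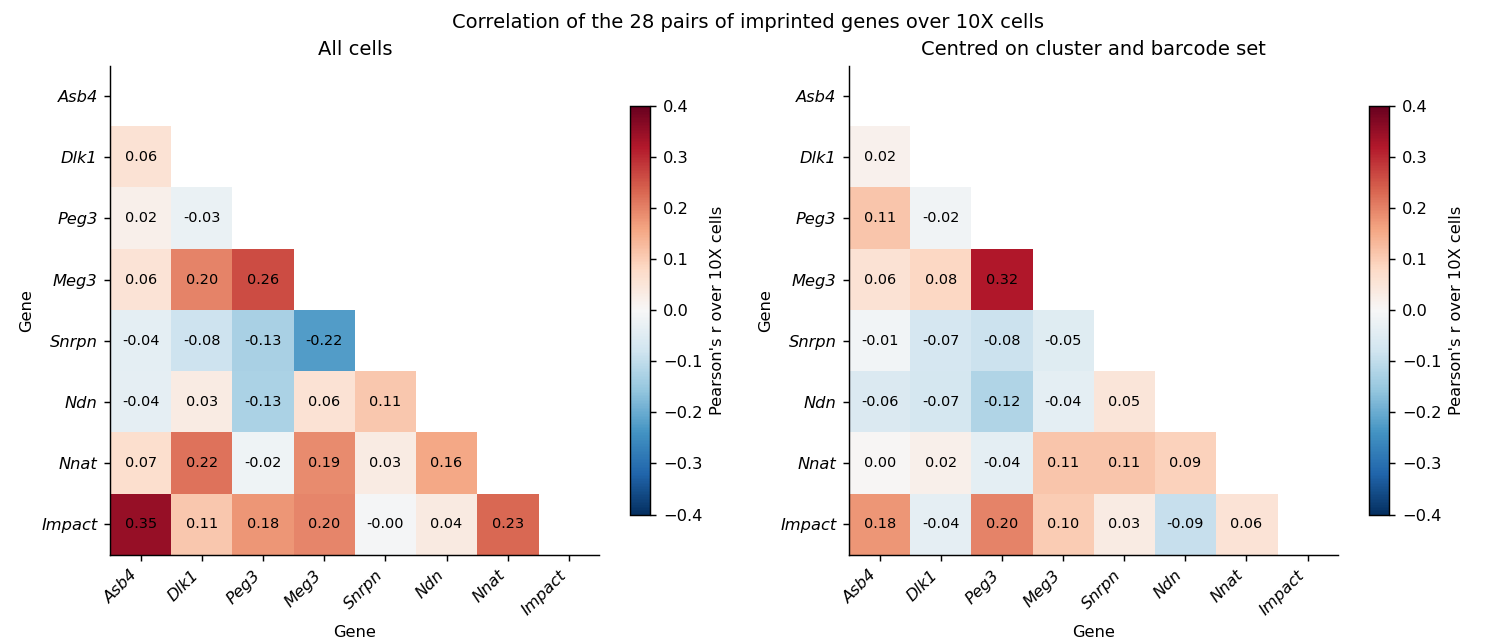
Pearson's r over all 10X cells for the 28 pairs of genes, on the left for all cells and on the right after centring on the mean of each cluster and barcode set (colour scale -0.4 to 0.4). Asb4 with Impact (0.35) is the highest on the left and Peg3 with Meg3 (0.32) the highest on the right.

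For each member the 3 genes with the highest r were sought among 11480 genes with a UMI in at least 10% of cells. For Asb4 they included Pax5 (0.65), a transcription factor of the midbrain and isthmus, and the cadherin gene Cdh13 (0.64), and over the 14 cluster levels r with Pax5 was 0.83. Dlk1 was most like Calb1 (0.41), which encodes the calcium buffer calbindin, Edil3 (0.40) and the neurexin gene Nrxn3 (0.40). Among those of Nnat were Chgb (0.33), which encodes a protein of dense-core granules, and March1 (0.31). Impact had the protocadherin gene Pcdh17 (0.40), Pantr1 (0.39) and Ptprt (0.39). Ndn went with the ubiquitin gene Ubb (0.59), Tecr (0.57) and the malate dehydrogenase gene Mdh1 (0.54). Peg3 had Map1b (0.37), for a microtubule protein, Ncl (0.37) and Gabrb1 (0.36). Meg3 was most like the nuclear RNA Malat1 (0.69), Gprasp1 (0.46) and the imprinted Kcnq1ot1 (0.43), and Malat1 kept 0.71 after centring. The partners of Snrpn were Xist (0.66), Selm (0.62) and Gm8730 (0.61). Xist follows the barcode set, and after centring the highest were Atp5j2, Cox6b1 and Gabarapl2 at 0.36, 0.36 and 0.35.

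The manually sorted cells give full-length reads for the same genes, with CPM over all genes per cell. Meg3 was listed at 0 in all 70 cells. Of the 1362 genes of the manual table that matched an annotation other than protein-coding, 97.7% were listed at 0 in every cell, against 20.6% of 21857 protein-coding genes. Malat1 and Kcnq1ot1 are among those at 0, so the 0 of Meg3 is not read as absence. The other 7 members had at least 10 CPM on average. Asb4, Dlk1 and Nnat were at least 1 log2 unit from the mean of the other groups in at least 1 of the 8 groups, on the log2(CPM + 1) scale, and Peg3, Snrpn, Ndn and Impact in none. Each of the 3 was that far above in some group, where 50.5% of 8886 genes at this level were, and that far below in some group, where 59.9% were. In either direction the share was 67.4%, so 3 of 7 is not a high share.

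**Figure D5:**
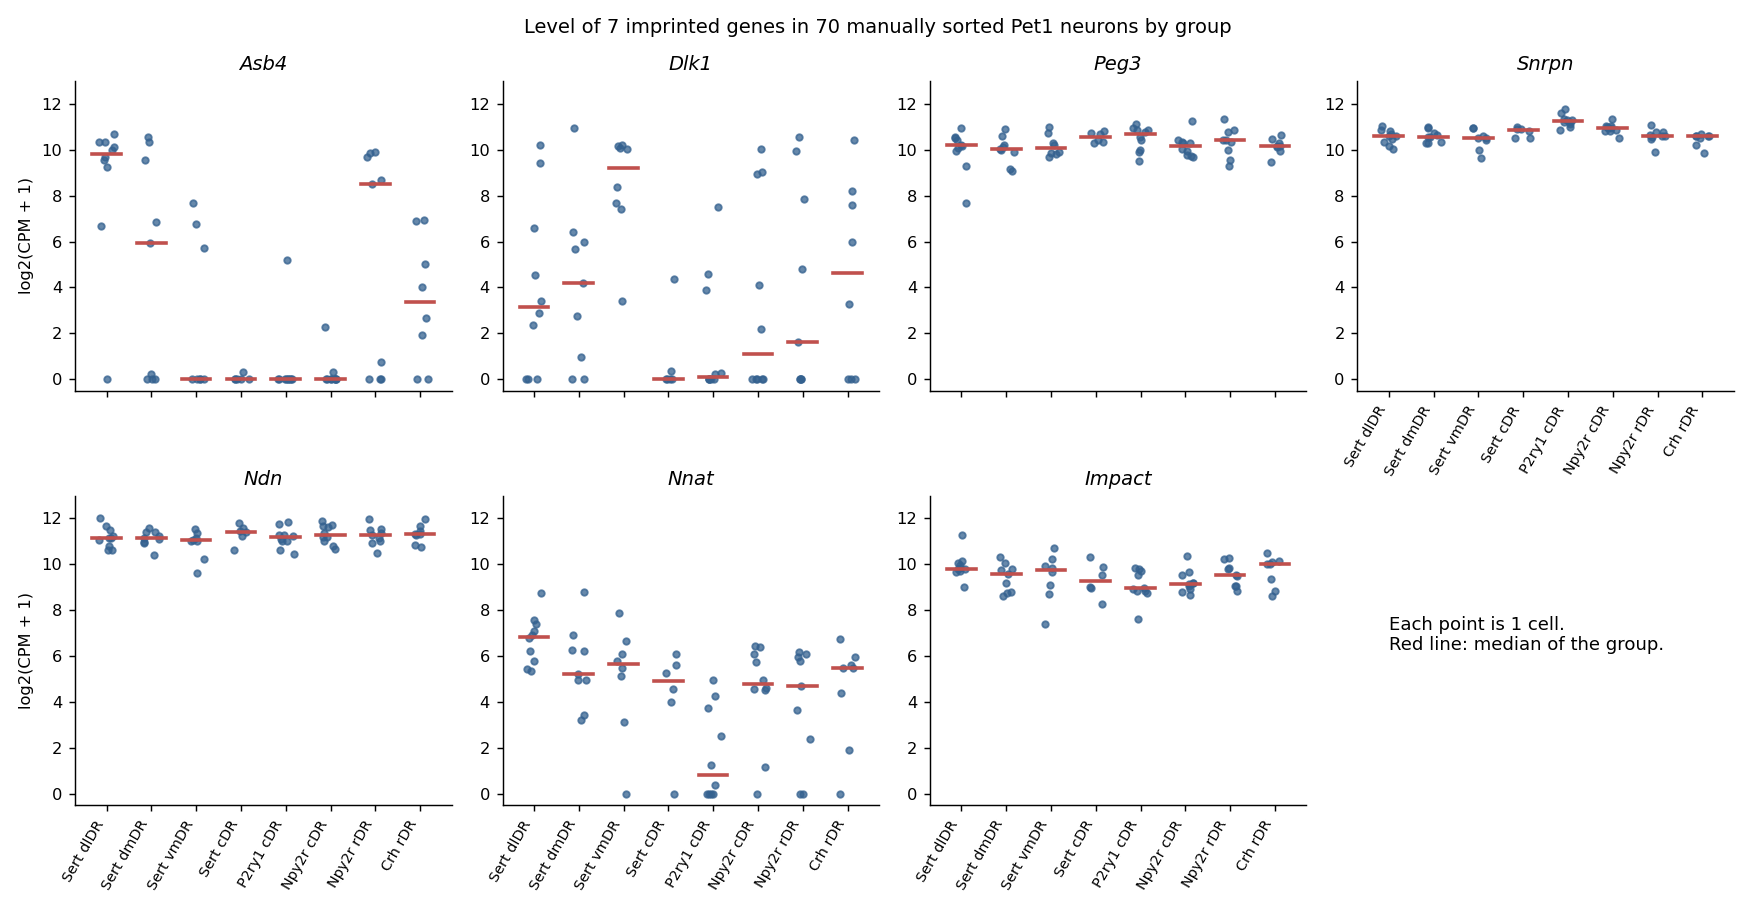
Level on the log2(CPM + 1) scale of 7 genes in each of the 70 manually sorted cells, by group, with a red line at the median. Asb4 is high in nearly every Sert-Pet1 dlDR cell and Dlk1 in nearly every Sert-Pet1 vmDR cell, while Peg3, Snrpn, Ndn and Impact have reads in all 70 cells.

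Asb4 had its highest group median in the dorsolateral cells. In Sert-Pet1 dlDR it ran from 0 to 1632 CPM with a median of 922 CPM, and 9 of 10 cells had more than 100 CPM. Sert-Pet1 dmDR ran from 0 to 1495 CPM (median 60.6) and Npy2r-Pet1 rDR from 0 to 971 CPM (median 369), each with cells at 0 and high cells. Crh-Pet1 rDR reached 121 CPM (median 10.4), and Sert-Pet1 vmDR 204 CPM (median 0). In the caudal groups almost all cells were at 0, with highest values of 0.228 CPM in Sert-Pet1 cDR, 3.78 CPM in Npy2r-Pet1 cDR and 35.8 CPM in P2ry1-Pet1 cDR. All groups overlapped, since the Sert-Pet1 dlDR group held 1 cell at 0. On the log2(CPM + 1) scale the mean of this group was 6.25 units above that of the other groups, against 4.94 with a pseudocount of 5 CPM and 2.76 as a log2 ratio of mean CPM. The difference of Sert-Pet1 cDR was -3.60, and -2.58 with a pseudocount of 5 CPM. High cells also lay outside this group, with 759 to 1495 CPM in 3 Sert-Pet1 dmDR cells assigned to cluster 2 and 369 to 971 CPM in 5 Npy2r-Pet1 rDR cells assigned to cluster 6. Within Sert-Pet1 dlDR the median was 1103 CPM in 5 cells at P63 and 816 CPM in 5 at P90.

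Dlk1 had its highest group median in the ventromedial cells, although the highest single cells lay in other groups. In Sert-Pet1 vmDR all 8 cells held reads, from 9.60 to 1189 CPM with a median of 688 CPM. The group was 5.25 log2 units above the other groups, against 4.07 with a pseudocount of 5 CPM and 1.88 as a log2 ratio of mean CPM. At P63 the 4 cells had a median of 1089 CPM and at P90 the 4 cells had 267 CPM, with ranges that overlapped. The other groups had low medians and single high cells, up to 1973 CPM in Sert-Pet1 dmDR (median 17.3), 1492 CPM in Npy2r-Pet1 rDR (median 2.09), 1387 CPM in Crh-Pet1 rDR (median 36.0), 1188 CPM in Sert-Pet1 dlDR (median 8.12) and 1045 CPM in Npy2r-Pet1 cDR (median 1.77). Highest values were lower in P2ry1-Pet1 cDR (179 CPM, median 0.0820) and Sert-Pet1 cDR (19.9 CPM, median 0). The difference of the latter group from the rest was -3.48, and -2.53 with a pseudocount of 5 CPM.

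Nnat was highest in Sert-Pet1 dlDR, where every cell held reads (39.2 to 434.5 CPM, median 114). Sert-Pet1 dmDR ran from 8.24 to 441 CPM (median 36.2). The medians of Sert-Pet1 vmDR, cDR, Npy2r-Pet1 cDR, Npy2r-Pet1 rDR and Crh-Pet1 rDR lay between 24.9 and 49.0 CPM, each group with at least 1 cell at 0. P2ry1-Pet1 cDR was lowest, from 0 to 30.1 CPM with a median of 0.852 CPM. Its 10 cells all lay below the 10 cells of Sert-Pet1 dlDR, but how many of all genes separate these groups as fully was not counted. The difference of P2ry1-Pet1 cDR from the other groups was -3.18. It was -2.17 with a pseudocount of 5 CPM, and 0.07 where each group with P63 cells was cut down to these, which leaves 1 P2ry1-Pet1 cDR cell.

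The steady members had reads in all 70 cells. Group medians ran from 1046 to 1634 CPM for Peg3, from 2116 to 2761 CPM for Ndn and from 493.1 to 1031 CPM for Impact, and no group mean was further than 0.53 log2 units from the others for these genes. Snrpn was highest in P2ry1-Pet1 cDR, with 1877 to 3492 CPM (median 2447), against group medians of 1463 to 1981 CPM elsewhere. This was 0.65 log2 units above the other groups. P2ry1-Pet1 cDR cells had a median of 7947 genes detected, the fewest of the groups, in which medians ran up to 9781.

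Pairs of neighbouring groups gave the same 3 genes. Npy2r-Pet1 cells from the caudal DR stood 5.02 log2 units below those from the rostral DR for Asb4, with means of 0.26 and 5.28, where 11.7% of genes were at least 1 unit below. Asb4 was also 3.83 units higher in Sert-Pet1 dlDR than in dmDR (6.66% of genes at least 1 unit above) and 2.31 units higher in dmDR than in vmDR (12.1%). Crh-Pet1 rDR had 1.84 units less than Npy2r-Pet1 rDR (4.28%). Dlk1 was 4.31 units lower in Sert-Pet1 dmDR than in vmDR (11.1%), and Nnat was 1.18 units higher in dlDR than in dmDR and 2.53 units lower in P2ry1-Pet1 cDR than in Sert-Pet1 cDR (34.3%). In each of these pairs the cells of both groups overlapped.

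The manual cells were also assigned to the 10X clusters by label transfer without any imprinted gene. All 70 were given the same cluster as with these genes. Prediction scores ran from 0.425 to 1.0 with a median of 0.8265, and low scores mark uncertain assignments. Asb4 ran from 608 to 1632 CPM in the 10 cells assigned to cluster 2 and from 369 to 1312 CPM in the 6 assigned to cluster 6, the clusters with the highest 10X levels. It did not exceed 3.78 CPM in the 12 cells of cluster 7, 0.228 CPM in the 4 of cluster 8, 0 CPM in the 5 of cluster 10 and 0.187 CPM in the 4 of cluster 11. Of the 10 cells assigned to cluster 12, 1 had 35.8 CPM and the others 0. The 2 cells of cluster 5 had 0 and 2.78 CPM and the 2 of cluster 13 had 0.672 and 52.4 CPM, where the 10X levels were 152 and 147 CPM. The values in cluster 2 and cluster 6 did not overlap with those in clusters 7, 8, 10, 11 and 12. How many of all genes separate these cells as fully was not counted.

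Dlk1 was again mixed within an assignment. It had 1188 and 1189 CPM in the 2 cells assigned to cluster 1, 1135 to 1973 CPM in the 3 of cluster 4 and 1090 and 1492 CPM in the 2 of cluster 13, but 0 to 988 CPM in the 6 of cluster 6, 0 to 1045 CPM in the 12 of cluster 7 and 0 to 1043 CPM in the 4 of cluster 11. In cluster 10, which was low in the 10X cells (51.0 CPM), the 3 Sert-Pet1 vmDR cells had 172 to 332 CPM and the other 2 cells 0. These 3 cells had prediction scores of 0.488 to 0.579, and the cluster 11 cell at 1043 CPM had 0.444. The highest cells of clusters 6 and 7 had 0.964 and 0.925. Whether uncertain assignment underlies the mixed values was not tested. All 10 P2ry1-Pet1 cDR cells were assigned to cluster 12, and 3 of them had at least 10 CPM of Dlk1. Nnat ran from 136 to 232 CPM in the cells of cluster 1, from 47.3 to 441 CPM in those of cluster 4 and from 30.2 to 434.5 CPM in those of cluster 2. It did not exceed 2.78 CPM in the 2 cells of cluster 5, 24.9 CPM in the 2 of cluster 13 and 30.1 CPM in the 10 of cluster 12. In the 10X cells, clusters 5 and 12 were the lowest, and cluster 13 was not (73.7 CPM). With 1 to 12 cells in each, these counts allow no more than a range.

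Over the 70 manual cells the 21 pairs of the 7 genes had a median r of -0.012 on the log2(CPM + 1) scale. Asb4 had 0.39 with Nnat and 0.38 with Impact, and 0.17 and 0.21 after centring on the group. Dlk1 and Nnat had 0.22, and Snrpn had 0.28 with Ndn and -0.41 with Nnat. Cells of a group share driver, place and animals, so these values describe the table.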

How the data were processed

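The members and all lists were chosen with earlier results of these data known. The authors mapped 10X reads with Cell Ranger 3.0.2 and manual reads with STAR 2.5.4 to mm10, per the submitters' notes, and deposited counts without normalization, UMI counts for 10X cells filtered by the authors and read counts per gene for the manual cells. No per-sample column of another series was found (0). The 10X table pools both libraries, so it was treated as 1 sample, and each manual group as 1 sample, since the labels name no animals. No test was therefore made and no p-value is given.

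Clustering followed the stated settings in Seurat 5.3.0 (R 4.3.3), with 10000 counts per cell and log transformation, 2000 variable genes, components 1 to 5 and 8 to 50, 20 neighbours and Louvain resolution 0.9. UMIs were summed by cluster and given as CPM. Intervals are exact (Poisson or binomial) at 95%. A gene counted as past the limit at 2-fold against all other cells, among genes at 10 CPM or more. For manual cells, means of log2(CPM + 1) were compared with the mean of the other group means. Cells were thinned to 20000 UMIs (53 shallower cells left out), and Scrublet (scanpy 1.11.5, expected rate 5%) called 14 doublets, which were kept. Manual cells were assigned by Seurat label transfer over 30 dimensions. Named genes are the members, other imprinted genes past 2-fold, and the 3 genes with the highest Pearson's r to each member, of which some are not reported here. Positions are from GENCODE M21 (mm10), and upstream sequences from RefSeq (GRCm38.p6, 7 of 8 members matched). The ratio was tested on simulated data. Alternatives used edgeR 4.0.16 (TMM) and DESeq2 1.42.0 (size factors). Python 3.11.15, numpy 2.4.6, scipy 1.17.1 and pandas 2.3.3 were used, and matplotlib 3.10.9 for figures.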

Additional observations from a re-analysis of the deposited data

Results flagged for a closer look

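In 11 of 56 combinations of a gene and a manual group, the highest or the lowest cell stood apart from the others on the log2(CPM + 1) scale by Dixon's criterion, the gap to the nearest cell divided by the range of the group. Chance alone would give about 1 in 20, under the assumption of normal values, which levels with many cells at 0 do not meet. For Asb4 these were the cell at 0 in Sert-Pet1 dlDR (0.627; the next had 102 CPM), the cell at 0.228 CPM in Sert-Pet1 cDR (1.0, all others at 0), the cell at 35.8 CPM in P2ry1-Pet1 cDR (1.0, all others at 0) and the cell at 3.78 CPM in Npy2r-Pet1 cDR (0.861). A value of 1.0 follows by construction for any cell with reads where all others are at 0. For Dlk1 the cell at 9.60 CPM in Sert-Pet1 vmDR (0.591) and the cell at 19.9 CPM in Sert-Pet1 cDR (0.919) stood apart. For Peg3 a Sert-Pet1 dlDR cell at 203 CPM (0.494; the next had 627 CPM) and an Npy2r-Pet1 cDR cell at 2458 CPM (0.529) stood apart. Nnat was at 0 in 1 Sert-Pet1 cDR cell (0.654). For Impact, 1 Sert-Pet1 dlDR cell had 2476 CPM (0.492; the next had 1147 CPM) and 1 P2ry1-Pet1 cDR cell had 197.5 CPM (0.504).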

How the results depend on the processing

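No paired analysis was possible because no result comes from a test and the cells of different groups share no animal by label. The 3 members past 2-fold above and the 3 below in the 10X clusters were Asb4, Dlk1 and Nnat under every alternative other than the 1.5-fold limit, which added Ndn above and Impact below. For the other imprinted genes, 5 were above, and 3 in barcode set 1 alone, 11 at 1.5-fold, 3 at 3-fold, 16 with no filter on low genes and 3 with TMM factors, while the 4 below became 6 in barcode set 1 alone (with Zim1 and Magel2), 9 at 1.5-fold and 16 with no filter. Between the barcode sets, no member was past 2-fold and 1, Snrpn, past 1.5-fold. The median r of member pairs was 0.056, 0.0197 after centring on cluster and barcode set and 0.0876 in barcode set 2 alone. The 3 manual members were the same under all 6 alternatives, although with P63 cells alone the difference of Nnat in P2ry1-Pet1 cDR went from -3.18 to 0.07 (1 cell) and that of Asb4 in Sert-Pet1 vmDR from -0.77 to 0.58. Of 160 values of the members' highest and lowest log2 ratios under the alternatives, 104 lay within the counting interval, 56 outside it, and no ratio past 2-fold turned its sign, while that of Snrpn in cluster 4 (-0.34) did. The cluster 14 ratio of Nnat, 2.16, was 0.94 at resolution 0.7 and 0.96 with components 6 and 7 kept, for the cluster that took most of its cells. Exact PCA was chosen after seeing the data. Depth limits the low values, such as Asb4 in clusters 8 and 12, and the manual groups rest on 6 to 10 cells.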
